A study of Mus musculus with 6 samples.

Results

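TRBJ2-1, TRBJ2-2, TRBJ2-3, TRBJ2-4 and TRBJ2-5 are joining (J) segments of the downstream J cluster of the mouse T-cell receptor beta (TCRB) locus. Their rearrangements were taken as every listed rearrangement whose deposited J name was one of these 5, with alleles ignored (RefSeq symbols Trbj2-1, Trbj2-2, Trbj2-3, Trbj2-4 and Trbj2-5). They were 5 of the 14 J segments listed and held 2019 of 4409 listed rearrangements (45.8%), with 2551 of 7043 templates (36.2%). A template here is the deposited whole-number count of a rearrangement. A rearrangement is a distinct nucleotide sequence within a sample, and across samples the 2019 comprised 1937 distinct sequences. Some of these share V segment, CDR3 nucleotides and J segment and differ only outside the CDR3, and the 1937 held 1797 such combinations.

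The samples were follicular regulatory T (Tfr) cells, labelled as CD4 T cells, sorted from the spleens of 3 mice of the Foxp3GFP genotype. Every animal contributed a pair of samples, called superior and inferior in their titles. What these words refer to is not stated, nor is an age or a treatment, and they are used here only as group names. Genomic DNA was amplified with a commercial kit for mouse TCRB at survey resolution. The assay counts rearranged DNA and measures no marker gene, so the identity of the sorted cells could not be checked here. Depth was 667 to 1855 templates per sample, of which 242 to 674 carried the 5 segments. The 2 samples of a mouse share an animal, so the mouse was the replicate in comparisons between segments.

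A TCRB gene is assembled by joining a variable (V), a diversity (D) and a J segment. The join encodes the third complementarity-determining region (CDR3), a loop that contacts the presented peptide. The J segment supplies the last residues of the CDR3, and bases can be trimmed from it or added at the join. TRBD2 lies between the J clusters, so it can join by deletion only to the downstream cluster, whereas TRBD1 can join to either.

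In the RefSeq annotation of GRCm38.p6, the segments lie in order on chromosome 6, and all 14 J names and 29 V names in the data matched it. TRBJ2-1 lies at chr6:41542754-41542803, and TRBJ2-2 at chr6:41542957-41543007. TRBJ2-3 lies at chr6:41543223-41543271, TRBJ2-4 at chr6:41543362-41543410 and TRBJ2-5 at chr6:41543453-41543501. Each is a coding J segment of 49 to 51 bases. TRBJ2-1 begins 578 bases after the end of TRBD2 (chr6:41542163-41542176), and TRBJ2-5 begins 1277 bases after it. The annotated pseudogene TRBJ2-6 and the coding segment TRBJ2-7 (chr6:41543810-41543856) follow.

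The commonest final 15 bases of the deposited windows are shown for each segment because they carry its part of the CDR3. The windows stop just before the last CDR3 residue. Sequences read 5′ to 3′, and capitals mark bases that none of the other 4 segments had at that position.
TRBJ2-1: TaTgCTGagcagtTc
TRBJ2-2: AcCgGGCagctCtac
TRBJ2-3: GcagaAacgctgtaT
TRBJ2-4: caaAacaccTtgtac
TRBJ2-5: caagacacccagtac

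These ends differed widely, with 1 of 15 bases shared by all 5 segments. TRBJ2-4 and TRBJ2-5 were the closest pair, with 12 of 15 bases identical, and TRBJ2-5 had no base of its own. TRBJ2-1 and TRBJ2-2 had 6 bases of their own each. The share of rearrangements that kept all 15 bases was 89.6% ± 6.32 for TRBJ2-2 and 85.2% ± 4.17 for TRBJ2-3 (mean ± SD over 6 samples). It was 70.7% ± 5.76 for TRBJ2-4, 68.6% ± 6.56 for TRBJ2-1 and 56.5% ± 5.85 for TRBJ2-5. The commonest end was thus least often intact for TRBJ2-5 among the 5, and for TRBJ2-7 the share was 23.7% ± 3.21. The 15-base window was chosen after the sequences were seen, and the deposited J names rest on the same bases, so these shares are descriptions without a test.

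The 5 segments were used unequally. TRBJ2-5 and TRBJ2-1 were the most used, each with about 9 in 100 templates, and TRBJ2-2, TRBJ2-3 and TRBJ2-4 were used less. TRBJ2-5 made up 9.60%, 9.13% and 9.60% of templates in the superior samples of mice 1 to 3, and 9.20%, 8.26% and 8.89% in the inferior samples. For TRBJ2-1 the values were 9.30%, 8.68% and 9.33% in superior and 10.8%, 7.93% and 7.98% in inferior samples. These segments overlapped, and TRBJ2-5 was higher in 5 of 6 samples by a mean of 0.110 ± 0.668 percentage points (SD over 3 mice).

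TRBJ2-4 held 7.20%, 6.48% and 6.07% of templates in the superior samples of mice 1 to 3, and 6.13%, 5.98% and 7.76% in the inferior samples. TRBJ2-2 held 4.20%, 5.11% and 7.04% in superior and 5.62%, 5.87% and 6.74% in inferior samples. TRBJ2-3 held 6.0%, 4.47% and 6.60% in superior and 5.99%, 5.43% and 4.96% in inferior samples. None of these 3 segments reached the level of TRBJ2-1 or TRBJ2-5 in the same sample. A single-sample share rests on 28 to 165 templates, and its 95% Wilson interval reaches 0.991 to 2.24 points to either side, for counting error only.

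Mean shares were 9.11% ± 0.499 for TRBJ2-5, 9.0% ± 1.07 for TRBJ2-1, 6.60% ± 0.722 for TRBJ2-4, 5.76% ± 1.05 for TRBJ2-2 and 5.58% ± 0.776 for TRBJ2-3 (SD, n = 6 samples). An exact Friedman test with mice as blocks gave p = 0.00278, or 0.00537 after Benjamini-Hochberg adjustment over the 4 features tested. Of the 10 pairs of segments, 6 had the same order in 6 of 6 samples, namely TRBJ2-1 and TRBJ2-5 each above the other 3. The order of the other pairs was not the same in all samples. No single pair can pass a test here, since an exact sign-flip test over 3 mice cannot go below 0.25. With only 2 mice the adjusted exact p was 0.0667 without mouse 2 and 0.0667 without mouse 3, against 0.0111 without mouse 1. These were adjusted together with the p of the other features from all 3 mice.

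**Figure D1:**
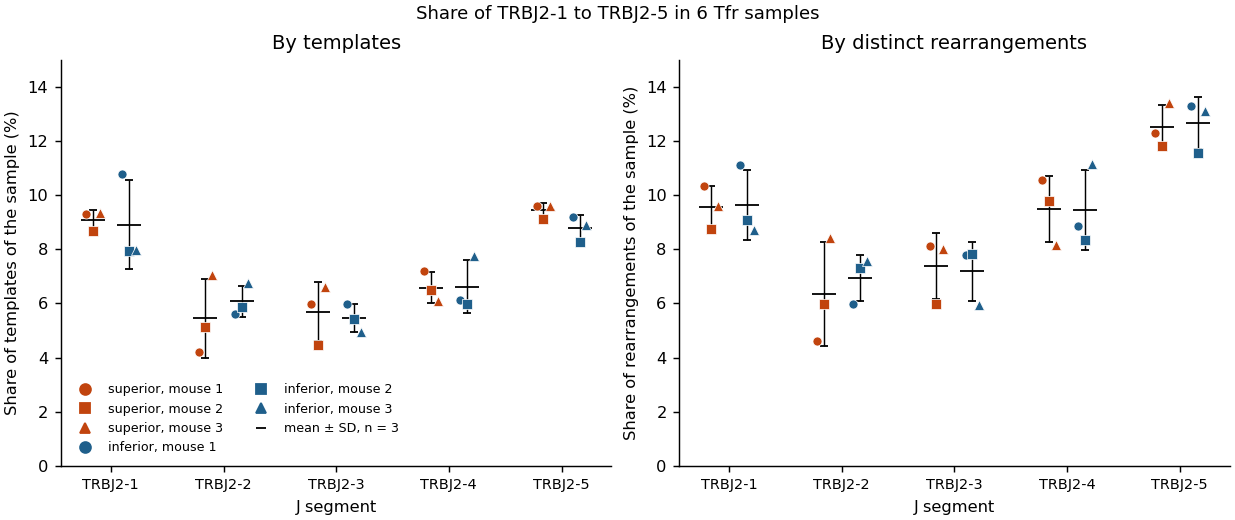
Share of each of the 5 J segments per sample, in percent of templates (left) and of distinct rearrangements (right). Colours mark superior and inferior samples, shapes mark mice 1 to 3, and bars give the mean and SD of 3 samples. TRBJ2-5 and TRBJ2-1 lie above the other 3 segments by templates, and TRBJ2-5 lies above all others by rearrangements.

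Counting each rearrangement once changed the order below TRBJ2-5. TRBJ2-5 held 12.6% ± 0.799 of rearrangements and was higher than each of the other 4 segments in all 6 samples. TRBJ2-1 held 9.60% ± 0.964 and TRBJ2-4 9.48% ± 1.22, and the order of this pair differed between samples. TRBJ2-3 held 7.28% ± 1.03 and TRBJ2-2 6.64% ± 1.37. By templates TRBJ2-4 was lower than TRBJ2-1 in 6 of 6 samples, by 2.40 ± 0.871 points (SD over 3 mice). Together the 5 segments held 36.1% ± 2.05 of templates and 45.6% ± 2.00 of rearrangements (n = 6).

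Templates per rearrangement also differed between the segments. TRBJ2-1 had the most templates per rearrangement, and TRBJ2-4 and TRBJ2-5 had little more than 1. In the superior samples of mice 1 to 3, TRBJ2-1 averaged 1.32, 1.58 and 1.45 templates per rearrangement, and in the inferior samples 1.59, 1.43 and 1.53. TRBJ2-4 averaged 1.0, 1.06 and 1.11 in superior and 1.14, 1.17 and 1.16 in inferior samples. Every TRBJ2-1 value lay above every TRBJ2-4 value.

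TRBJ2-5 averaged 1.14, 1.23 and 1.07 in superior and 1.14, 1.17 and 1.13 in inferior samples, and it overlapped TRBJ2-4. TRBJ2-2 ranged from 1.25 to 1.54 and TRBJ2-3 from 1.08 to 1.39. Means were 1.48 ± 0.104 for TRBJ2-1, 1.38 ± 0.110 for TRBJ2-2, 1.22 ± 0.109 for TRBJ2-3, 1.15 ± 0.0543 for TRBJ2-5 and 1.11 ± 0.0655 for TRBJ2-4 (SD, n = 6). The exact Friedman test over mice gave p = 0.00403 (adjusted 0.00537), and 0.117 adjusted without mouse 1. TRBJ2-1 and TRBJ2-2 each exceeded TRBJ2-3, TRBJ2-4 and TRBJ2-5 in 6 of 6 samples.

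The difference lay largely in rearrangements counted at 2 templates. Over all samples, 28.0% of the 421 TRBJ2-1 rearrangements had exactly 2 templates, against 21.9% of 301 for TRBJ2-2, 12.1% of 314 for TRBJ2-3, 7.49% of 561 for TRBJ2-5 and 6.16% of 422 for TRBJ2-4. Rearrangements with 4 or more templates were few for every segment, from 0.711% for TRBJ2-4 to 3.56% for TRBJ2-1. The share with 1 template was 63.7% for TRBJ2-1, 73.1% for TRBJ2-2, 83.8% for TRBJ2-3, 90.6% for TRBJ2-5 and 91.5% for TRBJ2-4. In the superior sample of mouse 1, all 48 TRBJ2-4 rearrangements had 1 template. Merging rearrangements of a sample with the same V, CDR3 nucleotides and J left 377 of 421 for TRBJ2-1, 279 of 301 for TRBJ2-2 and 289 of 314 for TRBJ2-3. It left 402 of 422 for TRBJ2-4, 532 of 561 for TRBJ2-5 and 793 of 971 for TRBJ2-7. The values above are for unmerged rearrangements.

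**Figure D2:**
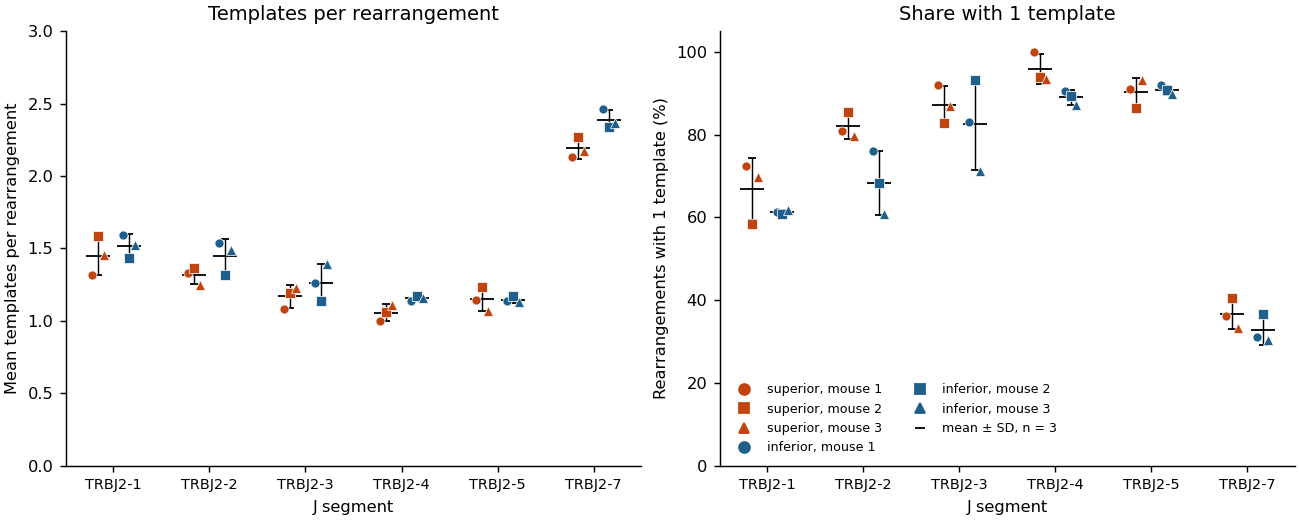
Mean templates per rearrangement (left) and percent of rearrangements with 1 template (right) for the 5 segments and TRBJ2-7, per sample. Colours mark superior and inferior samples, shapes mark mice, and bars give the mean and SD of 3 samples. TRBJ2-1 is highest and TRBJ2-4 and TRBJ2-5 lowest among the 5 on the left, and TRBJ2-7 stands at 2.29.

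The higher values of TRBJ2-1 and TRBJ2-2 over TRBJ2-4 also appeared within V segments and within CDR3 lengths, as a description of all samples pooled. Over the 10 V segments with the highest share averaged over the 5 J segments, TRBJ2-1 had more templates per rearrangement than TRBJ2-4 with 10 of 10. It had more than TRBJ2-5 with 9 of 10, and TRBV3 was the exception (1.20 against 1.27). Within each CDR3 length from 12 to 17 residues, TRBJ2-1 and TRBJ2-2 each lay above TRBJ2-4 and TRBJ2-5. The order of TRBJ2-1 and TRBJ2-2 was not kept, and TRBJ2-1 was higher with 7 of 10 V segments and at 4 of 6 lengths. The largest value was that of TRBV2 with TRBJ2-1, 2.14 templates over 35 rearrangements. This breakdown was added after the order was seen.

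The 5 segments together averaged 1.25 ± 0.0599 templates per rearrangement, against 2.29 ± 0.124 for TRBJ2-7 and 1.56 ± 0.132 for the upstream TRBJ1 cluster (n = 6). They were lower than TRBJ2-7 in 6 of 6 samples, by 1.04 with an SD of 0.0259 over mice (exact sign-flip p = 0.25, the smallest possible). Among the 12 tested J segments the range was wider than within the 5, from 1.05 ± 0.0324 for TRBJ1-1 to the 2.29 of TRBJ2-7. TRBJ2-7 had 1 template in 34.4% of its 971 rearrangements, against 81.5% of the 2019 of the 5 segments.

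CDR3 length also differed, over a narrow range. TRBJ2-2 had the longest CDR3 on average and TRBJ2-5 the shortest. With each rearrangement counted once, TRBJ2-2 averaged 14.1, 14.7 and 14.3 residues in the superior samples of mice 1 to 3 and 14.5, 14.8 and 14.5 in the inferior samples. TRBJ2-5 averaged 13.6, 13.9 and 13.6 in superior and 13.7, 14.3 and 13.9 in inferior samples. TRBJ2-2 was longer in 6 of 6 samples, by 0.627 ± 0.0203 residues (SD over 3 mice).

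TRBJ2-3 averaged 14.2 ± 0.127 residues, TRBJ2-1 14.1 ± 0.107 and TRBJ2-4 14.0 ± 0.190 (SD, n = 6), and these 3 overlapped. TRBJ2-2 averaged 14.5 ± 0.278 and TRBJ2-5 13.8 ± 0.265. The exact Friedman test gave p = 0.00403 (adjusted 0.00537). The adjusted exact p was 0.117 without mouse 1, and 0.213 in the superior samples alone, where the difference of TRBJ2-2 and TRBJ2-5 was 0.625 residues.

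TRBJ2-2 had few short CDR3, while TRBJ2-4 had both short and long ones. CDR3 of 12 residues or fewer made up 4.32% ± 2.80 of TRBJ2-2 rearrangements, 10.6% ± 4.51 for TRBJ2-3, 11.2% ± 4.80 for TRBJ2-1, 12.4% ± 3.81 for TRBJ2-5 and 15.6% ± 4.85 for TRBJ2-4. CDR3 of 16 residues or more made up 8.16% ± 2.98 for TRBJ2-5, 13.1% ± 1.45 for TRBJ2-1, 16.4% ± 3.88 for TRBJ2-4, 18.4% ± 10.4 for TRBJ2-2 and 19.2% ± 4.12 for TRBJ2-3. The spread of lengths within a sample was widest for TRBJ2-4, with a mean SD of 1.57 residues, and narrowest for TRBJ2-2, with 1.17. These tails were not tested.

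**Figure D3:**
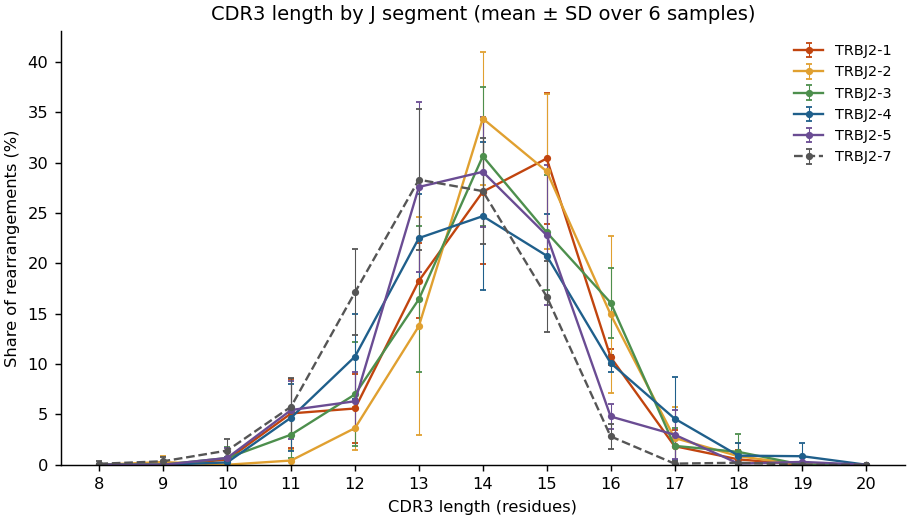
CDR3 length in residues against the percent of distinct rearrangements, for the 5 segments (solid lines) and TRBJ2-7 (dashed). Points are means over 6 samples and bars their SD. The 5 segments lie to the right of TRBJ2-7, with TRBJ2-2 highest at 14 residues (34.4%) and TRBJ2-1 at 15 (30.4%).

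The 5 segments together averaged 14.1 ± 0.138 residues, longer than TRBJ2-7 with 13.4 ± 0.0560 in 6 of 6 samples (exact sign-flip p = 0.25). Their share of CDR3 of 16 residues or more was 14.3% ± 2.45, against 3.12% ± 1.20 for TRBJ2-7 and 7.72% ± 1.58 for the TRBJ1 cluster. Mean length did not set the 5 apart from every TRBJ1 segment. TRBJ1-6 averaged 14.2 ± 0.340 residues, TRBJ1-3 14.1 ± 0.216 and TRBJ1-4 13.9 ± 0.249, within the range of the 5. TRBJ1-1 with 13.2 ± 0.152, TRBJ1-2 with 13.5 ± 0.0677 and TRBJ1-5 with 13.5 ± 0.225 were below it. TRBJ2-7 is annotated with 47 bases, and the 5 segments with 49 to 51.

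Over all samples, TRBD2 was named in more templates than TRBD1 with TRBJ2-1, TRBJ2-3, TRBJ2-4 and TRBJ2-5, but not with TRBJ2-2. Among templates with a named D, TRBJ2-5 carried TRBD2 in 67.3%, 68.6% and 54.4% in the superior samples of mice 1 to 3 and in 66.0%, 85.1% and 58.1% in the inferior samples. TRBJ2-2 carried it in 70.6%, 62.2% and 49.2% in superior and in 41.3%, 47.1% and 42.9% in inferior samples. TRBJ2-2 was below TRBJ2-5 in 5 of 6 samples, the superior sample of mouse 1, with 17 templates, being the exception. Over all samples TRBJ2-2 carried TRBD2 in 148 of 305 templates with a named D (48.5%), and its share was below 50% in 4 of 6 samples.

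Means were 66.6% ± 10.6 for TRBJ2-5, 62.6% ± 4.19 for TRBJ2-1, 61.1% ± 10.7 for TRBJ2-3, 56.8% ± 7.50 for TRBJ2-4 and 52.2% ± 11.7 for TRBJ2-2 (SD, n = 6). TRBJ2-7 had 57.9% ± 5.22. The exact Friedman test over mice gave p = 0.0284, also after adjustment. That call was lost in 7 of 8 alternatives, with adjusted p from 0.0559 to 0.342, the latter without mouse 1. The D was unnamed in 27.9% ± 13.1 of TRBJ2-2 templates, and in 16% ± 2.80 of TRBJ2-1 templates, the highest and lowest of the 5. A single-sample TRBD2 share rests on 17 to 130 templates, and its 95% Wilson interval reaches 8.17 to 19.9 points to either side.

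The 5 segments together carried TRBD2 in 60.6% ± 4.96 of templates with a named D, against 7.79% ± 3.19 in the TRBJ1 cluster, higher in 6 of 6 samples (exact sign-flip p = 0.25). By the order given above, TRBD2 cannot join to TRBJ1 by deletion, and the accuracy of D naming was not tested. The TRBD2 shares of the 5 segments rest on the same naming. Against TRBJ2-7 the 5 segments were higher in 5 of 6 samples, by 2.70 ± 3.60 points, which is within the spread between mice. Within each of the 5, rearrangements named with TRBD2 had longer CDR3 than those named with TRBD1. The mean lengths were 14.7 against 13.7 residues for TRBJ2-1, 15.1 against 14.4 for TRBJ2-2, 14.8 against 14.2 for TRBJ2-3, 14.7 against 13.7 for TRBJ2-4 and 14.3 against 13.6 for TRBJ2-5. Rearrangements with an unnamed D were the shortest in each segment, from 12.8 residues for TRBJ2-1 to 13.6 for TRBJ2-2. A D is named from bases that remain in the join, so length and naming share the same bases, and these lengths are a description.

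**Figure D4:**
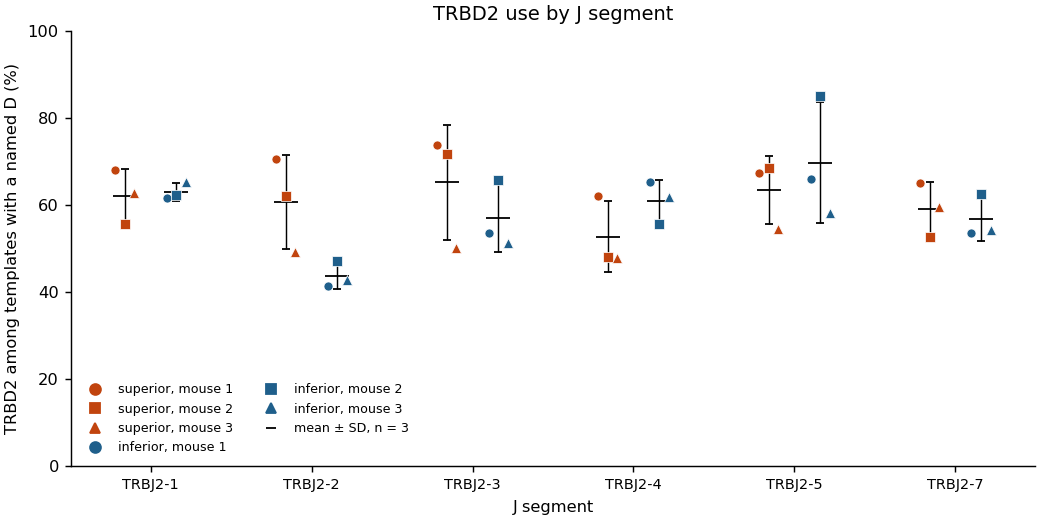
Percent of templates named with TRBD2 among those with a named D, for the 5 segments and TRBJ2-7, per sample. Colours mark superior and inferior samples, shapes mark mice, and bars give the mean and SD of 3 samples. TRBJ2-2 shows its 3 superior samples above its 3 inferior samples, and the other segments overlap.

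V use among the 5 segments differed by the test for TRBV12-2, whose share over all templates was highest with TRBJ2-4 and TRBJ2-3 and lowest with TRBJ2-1. In edgeR's quasi-likelihood test of the J term with mice as blocks, 1 of 21 V segments was called at an adjusted p under 0.05 (4.76%), with 2 at an unadjusted p under 0.05. TRBV12-2 (chr6:41118864-41119364) had an adjusted p of 0.0206. It held 24 of 471 templates of TRBJ2-4 and 19 of 388 of TRBJ2-3, against 2 of 632 of TRBJ2-1, 7 of 640 of TRBJ2-5 and 8 of 420 of TRBJ2-2. With TRBJ2-7 it held 39 of 2239. TRBV12-1, looked at after the call was seen, had the reverse order for TRBJ2-1 and TRBJ2-4, with 26 and 3 templates. It held 7 of TRBJ2-2, 9 of TRBJ2-3 and 9 of TRBJ2-5, and did not pass (edgeR adjusted p = 0.440). Whether the naming of these V segments plays a part was not tested.

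By mouse, TRBV12-2 made up 3.79%, 3.97% and 6.57% of TRBJ2-4 templates in mice 1, 2 and 3, and 8.20%, 6.06% and 1.80% of TRBJ2-3 templates. With TRBJ2-1 it made up 0.952% in mouse 1 and was not found in the 168 templates of mouse 2 or the 254 of mouse 3, which allow shares of up to 1.79% and 1.18%. With TRBJ2-2 it made up 4.76%, 1.82% and 0.488%, and with TRBJ2-5 1.58%, 0.568% and 1.09%. TRBJ2-4 lay above TRBJ2-1 and TRBJ2-5 in each mouse, but below TRBJ2-2 in mouse 1. TRBV12-2 held 0 of 48, 1 of 71 and 4 of 69 TRBJ2-4 templates in the superior samples of mice 1 to 3. In the inferior samples it held 5 of 84, 4 of 55 and 10 of 144. With TRBJ2-3 it held 1 of 40, 2 of 49 and 2 of 75 in superior samples. In inferior samples these were 9 of 82, 4 of 50 and 1 of 92. The share was higher in the inferior sample in each mouse for TRBJ2-4, and in mice 1 and 2 for TRBJ2-3. In the superior samples of mice 1 and 2, TRBJ2-4 lay below TRBJ2-2. V use was not tested in either group alone. The test asks whether the 5 segments differ at all, and no pair or grouping of them was tested. The 24 templates with TRBJ2-4 came from 20 rearrangements, none above 3 templates, and the 19 with TRBJ2-3 from 16, none above 4. The call was lost with mouse 2 left out (adjusted p = 0.258) and with mouse 3 left out (0.341), and kept at 0.0215 without mouse 1. DESeq2 called 1 V segment, TRBV12-2 again (adjusted p = 0.0128).

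The most abundant TRBV12-2 rearrangement of TRBJ2-3 and of TRBJ2-4 is shown with the single TRBJ2-1 one, chosen after the call was seen, with capitals for the 3′ bases that match the common J end without a break. The first had 4 templates in an inferior sample of mouse 1, the next 3 in an inferior sample of mouse 3, and the last 2 in a superior sample of mouse 1.
TRBV12-2 with TRBJ2-3: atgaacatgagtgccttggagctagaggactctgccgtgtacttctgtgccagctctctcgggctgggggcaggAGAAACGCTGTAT
TRBV12-2 with TRBJ2-4: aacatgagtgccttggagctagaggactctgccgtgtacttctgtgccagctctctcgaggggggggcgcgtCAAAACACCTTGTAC
TRBV12-2 with TRBJ2-1: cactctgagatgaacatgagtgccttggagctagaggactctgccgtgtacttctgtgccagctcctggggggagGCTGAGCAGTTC

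Of the V segments, TRBV13-2, TRBV19, TRBV3, TRBV2 and TRBV5 were the most used with the 5 J segments. The 10 described were ranked by their share averaged over the 5 J segments with equal weight. TRBV13-2 held 12.7% ± 0.643 of their templates (SD over 3 mice), from 9.98% ± 0.802 of TRBJ2-3 to 16.7% ± 4.01 of TRBJ2-5 (edgeR adjusted p = 0.879). TRBV19 held 10.1% ± 2.13 and TRBV3 8.91% ± 1.85, and neither passed the test (adjusted p = 0.993 and 0.886). TRBV2 held 12.2% ± 3.57 of TRBJ2-1 templates and 4.58% ± 1.52 of TRBJ2-5 templates, a fitted log2 range of 1.40 that did not pass (adjusted p = 0.617). TRBV5 ran the other way, with 6.69% ± 0.866 of TRBJ2-1 and 10.4% ± 3.92 of TRBJ2-5, and did not pass either (adjusted p = 0.879). The other members of the 10, TRBV16, TRBV1, TRBV13-3, TRBV20 and TRBV4, had 3.82% to 5.23% of the summed templates, with adjusted p from 0.617 to 0.971. By summed templates TRBV4 (3.82%) ranked below TRBV13-1 (4.09%), TRBV26 (4.05%) and TRBV31 (4.01%). In simulated counts the edgeR test recovered 12.5% of 2-fold and 45% of 3-fold changes, so V segments that did not pass may still differ. The changes were placed only in the 10 V segments with the most templates, so recovery for rarer ones such as TRBV12-2 was not tested.

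**Figure D5:**
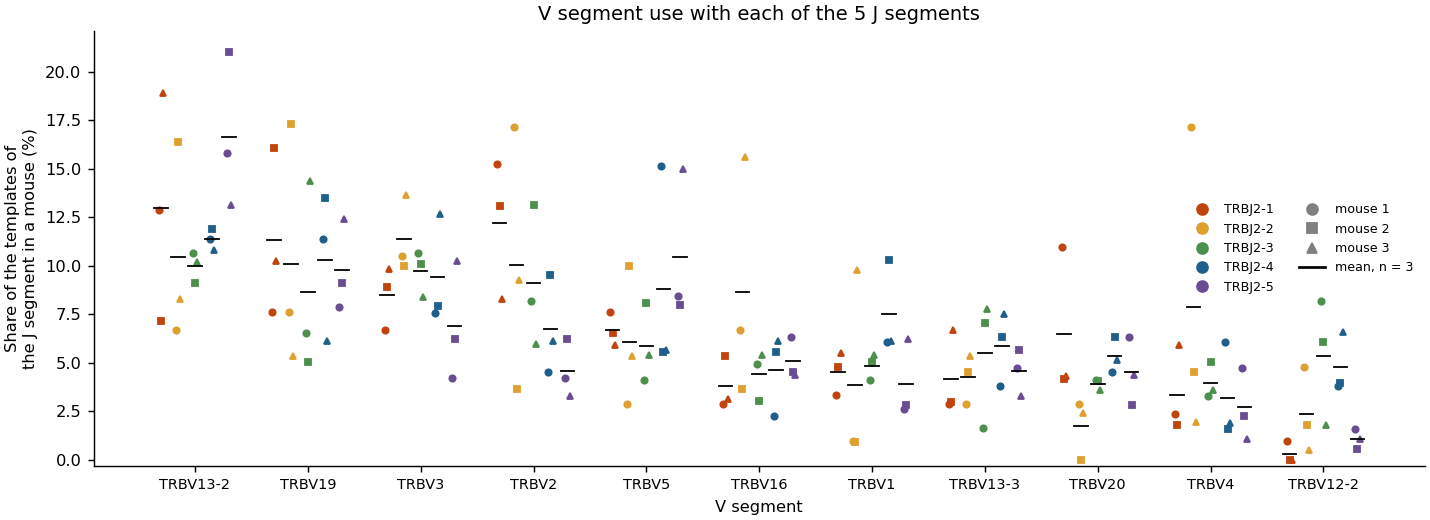
Percent of the templates of each J segment that carry a V segment, in each mouse, for TRBV12-2 and the 10 V segments with the highest share averaged over the 5 J segments. Colours mark the 5 J segments, shapes mark mice and bars give the mean of 3 mice. The TRBV12-2 points of TRBJ2-4 lie above those of TRBJ2-1 and TRBJ2-5 in each mouse and below that of TRBJ2-2 in mouse 1, while the other V segments show wide overlap.

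Against TRBJ2-7, edgeR called 0 of 23 V segments with the 5 J segments together (0%), with 3 at an unadjusted p under 0.05, and DESeq2 called 0 with 2 unadjusted. Against the TRBJ1 cluster edgeR called 0 of 23 (0%), with 2 unadjusted, and DESeq2 called 0 with 0 unadjusted. TRBV4 (chr6:41059443-41059886) had the smallest p in both. It held 5.80%, 2.80% and 2.88% of templates of the 5 segments in mice 1, 2 and 3, against 1.06%, 2.02% and 0.835% of TRBJ2-7 and 0.976%, 1.52% and 2.12% of TRBJ1. It was higher with the 5 segments in each mouse. The fitted log2 difference from TRBJ2-7 was 1.52 ± 0.48 (SE, adjusted p = 0.189). Without mouse 2 it was 2.14 (adjusted p = 0.0140) and with no block for the mouse 1.53 (0.0156), and both passed. In mouse 1, 18 of the 44 TRBV4 templates carried TRBJ2-2, where TRBV4 held 17.1% of templates.

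The largest rearrangement of each segment in any sample is shown because it marks how far single clones reached. The capitals mark the 3′ bases that match the common J end without a break.
TRBV2 with TRBJ2-1: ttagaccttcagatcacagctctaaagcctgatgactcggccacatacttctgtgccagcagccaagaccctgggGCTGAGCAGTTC
TRBV4 with TRBJ2-2: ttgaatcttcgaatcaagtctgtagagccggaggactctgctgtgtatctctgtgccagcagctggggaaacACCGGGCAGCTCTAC
TRBV26 with TRBJ2-3: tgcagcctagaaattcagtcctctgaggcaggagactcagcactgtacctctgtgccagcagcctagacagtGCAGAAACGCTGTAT
TRBV5 with TRBJ2-4: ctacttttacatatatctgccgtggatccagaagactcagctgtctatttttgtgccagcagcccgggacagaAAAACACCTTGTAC
TRBV13-2 with TRBJ2-5: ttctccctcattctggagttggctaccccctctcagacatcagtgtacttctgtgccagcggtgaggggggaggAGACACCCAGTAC

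These held 6, 12, 6, 4 and 7 templates in order, each in an inferior sample, and each encodes a CDR3 of 13 residues. For TRBJ2-4, 3 rearrangements tied at 4 templates, 2 in inferior samples and 1 in a superior one, and 1 of them is shown. No clone was large. Clonotypes were then summed by V segment, CDR3 residues and J segment within a mouse. The largest was the TRBV4 with TRBJ2-2 clonotype shown, in mouse 1, with 3 templates in its superior sample and 12 in its inferior one, where it made up 0.876% of all templates (95% Wilson interval 0.502 to 1.52). It supplied 15 of the 18 templates of TRBV4 with TRBJ2-2 in that mouse. For TRBJ2-5, a TRBV15 clonotype of 14 residues had 5 and 7 templates in the superior and inferior samples of mouse 1. The TRBV13-2 clonotype shown had 1 and 8 in mouse 2, and another of 13 residues had 1 and 6 in mouse 1.

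The leading clonotypes of TRBJ2-1 were each found in only 1 sample of their mouse. A TRBV24 clonotype of 16 residues had 8 templates in mouse 3 and the TRBV2 clonotype shown had 7 in mouse 1, both in inferior samples, while a TRBV12-1 clonotype of 14 residues had 6 in the superior sample of mouse 3. The next of TRBJ2-2 were spread over both samples of a mouse. A TRBV16 clonotype of 12 residues had 1 and 7 templates in the superior and inferior samples of mouse 3, and a TRBV2 clonotype of 13 residues had 3 and 5 in mouse 1. The leading TRBJ2-3 clonotypes had 5 to 7 templates and used TRBV26, TRBV13-1 and TRBV12-2. The leading TRBJ2-4 clonotypes had 5 each and used TRBV1, TRBV19 and TRBV3, with CDR3 of 14 or 15 residues.

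Few clonotypes were shared. Both samples of a mouse held 78 of 1801 clonotypes of the 5 segments (4.33%, 95% Wilson interval 3.48 to 5.37), against 34 of 759 with TRBJ2-7 (4.48%, 3.22 to 6.19). The shares were 2.72% for TRBJ2-1, 4.33% for TRBJ2-3, 4.69% for TRBJ2-4, 4.72% for TRBJ2-5 and 5.28% for TRBJ2-2, with overlapping intervals. Between mice, 16 of 1772 clonotypes (0.903%) were found in 2 mice and 0 in all 3, which allows a share of 0.169% for the latter. TRBJ2-3 had 5 of the 16 in 272 clonotypes (1.84%, 0.788 to 4.23) and TRBJ2-4 had 2 in 380 (0.526%, 0.144 to 1.90), so the intervals overlapped.

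The 3 most frequent clonotypes found in 2 mice all used TRBJ2-3, and in each of them the 2 mice carried different nucleotide sequences for the same residues. They are shown from the first CDR3 codon to the end of the window, with capitals at the bases that differ within a pair, to let the forms be compared.
TRBV26 with TRBJ2-3, mouse 3: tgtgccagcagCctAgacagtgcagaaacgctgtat
TRBV26 with TRBJ2-3, mouse 1: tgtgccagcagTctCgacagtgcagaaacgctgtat
TRBV13-2 with TRBJ2-3, mouse 2: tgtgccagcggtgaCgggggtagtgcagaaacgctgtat
TRBV13-2 with TRBJ2-3, mouse 3: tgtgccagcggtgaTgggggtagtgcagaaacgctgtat
TRBV2 with TRBJ2-3, mouse 2: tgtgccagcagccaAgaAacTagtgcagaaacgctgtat
TRBV2 with TRBJ2-3, mouse 3: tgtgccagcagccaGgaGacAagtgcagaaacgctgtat

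The TRBV26 forms differed at 2 of 36 bases and had 7 templates in mouse 3, over both of its samples, and 1 in mouse 1. The TRBV13-2 forms differed at 1 of 39 bases, with 1 template in mouse 2 and 5 in mouse 3. The TRBV2 forms differed at 3 of 39 bases, with 3 templates in each mouse. None of the differing bases lay in the final 15, the J end. Of the next 7 clonotypes found in 2 mice, with 3 to 5 templates each, 3 used TRBJ2-1, 3 used TRBJ2-5 and 1 used TRBJ2-2. TRBV13-2 or TRBV15 was the V segment in 5 of those 7, a pairing made after the list was seen. Among all rearrangements of the 5 segments, TRBV13-2 made up 13.1% ± 0.650 and TRBV15 3.48% ± 1.08 (SD over mice). A preference for these V segments among shared clonotypes was not tested.

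No difference in the use of the 5 segments between superior and inferior samples passed a test. The 5 segments summed to 36.3% ± 2.38 of templates in the 3 superior samples, against 35.8% ± 2.17 in the 3 inferior ones (SD, exact permutation p = 0.8). In edgeR's quasi-likelihood test, 0 of the 12 J segments tested were called (0%), with 1 at an unadjusted p under 0.05 that was not among the 5, and DESeq2 called 0 with 0 unadjusted. The log2 differences, superior over inferior, were 0.026 ± 0.16 (SE) for TRBJ2-1, -0.13 ± 0.19 for TRBJ2-2, 0.061 ± 0.18 for TRBJ2-3, -0.043 ± 0.16 for TRBJ2-4 and 0.097 ± 0.12 for TRBJ2-5. All were smaller than their standard error. The group values overlapped for each of the 5, and 8.33% of all 12 J segments had groups that did not.

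The other features did not pass between the groups either. Over 15 exact permutation tests of TRBD2 share, CDR3 length and templates per rearrangement, 0 passed and the smallest adjusted p was 0.5, in a design whose smallest unadjusted p is 0.1. That test does not use the pairing of samples by mouse, and an exact sign-flip test that does cannot go below 0.25. The sign was the same in all 3 mice for 6 of the 15. TRBD2 share was higher in the superior sample for TRBJ2-2 and lower for TRBJ2-4, length was lower for TRBJ2-2, TRBJ2-3 and TRBJ2-5, and templates per rearrangement were lower for TRBJ2-4. Such signs were not particular to the 5. The sign was also the same in all 3 mice for the TRBD2 share of TRBJ1-4, TRBJ1-5 and TRBJ1-6. It was so for the length of TRBJ1-1, TRBJ1-2, TRBJ1-3, TRBJ1-4 and TRBJ1-5. For templates per rearrangement it was so for TRBJ2-7, TRBJ1-3, TRBJ1-4 and TRBJ1-5. Groups did not overlap in 3 of the 15. The TRBD2 share of TRBJ2-2 was 60.7% ± 10.8 in superior and 43.7% ± 2.98 in inferior samples, where 16.7% of all 12 J segments had no overlap in TRBD2 share. CDR3 length of TRBJ2-3 was 14.1 ± 0.110 against 14.3 ± 0.0362 residues, where 8.33% had none. Templates per rearrangement of TRBJ2-4 were 1.06 ± 0.0565 against 1.16 ± 0.0182, where 33.3% had none, and TRBJ2-7 was likewise lower in the superior samples, with 2.19 ± 0.0721 against 2.39 ± 0.0659. Total templates differed too, at 667 to 1136 in superior and 920 to 1855 in inferior samples, and the part of depth in these differences was not tested.

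Across the 6 samples, each segment's template share was set against those of the other 11 tested J segments, as a description of shares that sum within a sample. TRBJ2-5 was most like TRBJ1-1 (Pearson r = 0.870), TRBJ2-4 most like TRBJ1-2 (0.647) and TRBJ2-2 most like TRBJ1-4 (0.625). TRBJ2-1 was most like TRBJ2-5 (0.590), and TRBJ2-3 most like TRBJ2-1 (0.563).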

How the data were processed

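Per the labels, sorted-cell DNA was amplified by immunoSEQ, a mouse TCRB kit, at survey depth. The authors deposited a whole-number count for every rearrangement. It is called templates here, although no header tells templates from reads. Their deposited fraction is that count divided by the sample's total. Build mm10 comes from the submitters' processing notes. Which aligner and caller were used is not given in the sources used here.

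Members, lists and named-segment rules were chosen with earlier results of these data known. Named were the 5 J segments, the 10 V segments with the highest share averaged over them with equal weight, V segments past a test, the 3 largest clonotypes per J segment and up to 10 clonotypes found in 2 or more mice. In 11 rearrangements (0.470% of their templates) the CDR3 lacked its first cysteine, and these were left out of length only.

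Features were averaged over the 2 samples of a mouse and compared among segments with an exact Friedman test (smallest p 6.94e-05) and Benjamini-Hochberg adjustment over 4 features, at 0.05. In each alternative of that test, the new p of a feature was adjusted together with the main p of the other features. Superior and inferior samples were compared with a two-sided exact permutation test. Segment usage was tested with edgeR 4.0.16 in R 4.3.3 on counts of segments with 10 or more templates, with total templates as library size and a common dispersion. DESeq2 1.42.0, TMM scaling, no low-count filter, rearrangements counted once or merged, each group alone and each mouse left out were among the alternatives. Mouse numbers pair the samples, which come from the same animal. Their deviations from the group mean over 12 J segments, in percentage points, correlated at 0.118, 0.936 and 0.761. TRBJ2-7 weighs most in these values, with an SD of 4.08 points in superior and 4.23 in inferior samples. The next largest SD was 2.01, for TRBJ1-2 in inferior samples. The steps were tested on simulated data, with changes of 1.5, 2 and 3 fold. For edgeR, changes were placed only in the 10 segments with the most templates, and no mouse effect was simulated. The edgeR test of V use among the 5 segments recovered 0%, 12.5% and 45% of changes placed in TRBJ2-5. That of V use against TRBJ2-7 recovered 12.5%, 37.5% and 97.5%, and that of J use between groups 60%, 100% and 100%. Intervals cover counting error only. Sequences came from the deposited files and coordinates from RefSeq.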

Additional observations from a re-analysis of the deposited data

Results flagged for a closer look

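Of 40 differences between pairs of the 5 segments, over 4 features, 1 had opposite signs in every superior and every inferior sample. The TRBD2 share of TRBJ2-2 minus that of TRBJ2-4 averaged 7.93 ± 6.41 percentage points over the 3 superior samples, against -17.1 ± 7.87 over the 3 inferior ones (SD). An exact permutation test of the 25.1-point gap gave p = 0.1, the smallest possible, so it cannot reach the threshold. The rule that picked this pair out of 40 requires full separation of the groups, which fixes that p in advance. The p therefore adds no support, and how often the rule flags a pair without a group difference was not tested. By rearrangements the differences were 5.85 ± 9.71 and -17.9 ± 8.75, positive in 2 of 3 superior and negative in 3 of 3 inferior samples. The TRBJ2-2 values rest on 17 to 91 templates with a named D.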

How the results depend on the processing

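For share, CDR3 length and templates per rearrangement, the highest minus the lowest segment kept its direction under the alternatives run. Mice left out in turn gave ranges of 3.43 to 3.60 points, 0.615 to 0.635 residues and 0.370 to 0.390 templates. Length missed the threshold in superior samples alone (0.625 residues, adjusted exact p 0.213). The TRBD2 difference of TRBJ2-5 and TRBJ2-2 missed it with rearrangements counted once (14.2 points), with those of the same V, CDR3 nucleotides and J merged (14.3), in superior samples alone (2.78) and inferior samples alone (26.0), and with mice left out (10.5 to 16.5). With unnamed D in the total it passed.

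The mouse as a block left 0 of 12 J segments called in superior against inferior samples, as without it. Mice left out gave 0 to 1, the 1 being TRBJ1-5 without mouse 3. The signs turned for TRBJ2-1 with rearrangements counted once (-0.021) and mice left out (-0.10 to 0.18), for TRBJ2-3 with mice left out (-0.18 to 0.22), for TRBJ2-4 with DESeq2 (0.029), TMM (0.046) and mice left out (-0.16 to 0.16), and for TRBJ2-5 with rearrangements counted once (-0.025) or merged (-0.035). With mice left out, signs also turned for templates per rearrangement of TRBJ2-1 (-0.173 to 0.0391) and TRBJ2-5 (-0.0269 to 0.0365), the TRBD2 share of TRBJ2-1 (-4.65 to 1.95) and the length of TRBJ2-4 (-0.148 to 0.118). V use among the 5 gave 0 to 1 calls with mice left out, and TRBV19, not called, ranged from -0.23 to 0.91. Against TRBJ2-7, 0 to 1 V segments were called with mice left out and 1 with no replicate block, TRBV4 in each case, and 0 against TRBJ1 under each. DESeq2 against TRBJ2-7 and TRBJ1 and the fits without the largest rearrangements were added after seeing the data, and changed no call. The causes were not tested. Single-sample D shares rest on 17 to 130 templates, which limits their precision.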
